A study of Mus musculus with 24 samples.

Results

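Distal sites of the histone methyltransferase KMT2D that lack the promoter mark H3K4me3 made up 3283 of the 6434 KMT2D peaks of a mouse melanoma line, 51.0%. A site was taken where the KMT2D summit lay over 5 kb from both ends of every protein-coding gene of the RefSeq table and the peak shared no base with an H3K4me3 peak of the same line. The other KMT2D peaks were 444 distal peaks with H3K4me3 and 2707 peaks within 5 kb of a gene end. The peaks come from CUT&RUN, in which an antibody directs a nuclease that frees the DNA next to its target. The WT line 971 is Kmt2d wild type and the mutant line 493 carries a Kmt2d mutation. Both are mouse melanoma cells kept in DMEM/F12 medium with serum and no treatment is named. Of 24 samples, 22 have a peak list, 10 from the WT line and 12 from the mutant line, and the rabbit IgG control of each line was not analysed here. Both lines have lists for UTX, Menin, TFAP2A, H3K4me3 and the remodeller subunits ARID1A, SMARCC1, BRD9, PBRM1 and ARID2. The WT line alone has KMT2D, and the mutant line alone has TFAP2B and SOX10, the last with an antibody from Bethyl (T) and one from CST (U). Each line and target has 1 library and each genotype 1 line, so no test between the lines was possible and line and genotype cannot be told apart. The intervals below are 95% intervals for counting error alone.

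Enhancers are stretches of regulatory DNA, often far from the genes they act on, that are opened by transcription factors and remodelling complexes. KMT2D places the monomethyl mark on histone H3 lysine 4 at enhancers, together with UTX, a demethylase of H3 lysine 27 in the same complex. H3K4me3, the trimethyl form, marks promoters and is placed largely by other methyltransferases, of which a pair works with Menin. SMARCC1 is a core subunit of the SWI/SNF remodellers, ARID1A marks the canonical BAF form, ARID2 and PBRM1 the PBAF form and BRD9 the non-canonical form. TFAP2A, TFAP2B and SOX10 are transcription factors of the neural crest and the pigment cell lineage.

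A small number of the sites, 57 (1.74%), overlapped the bases just before a RefSeq transcript start by at least 1 bp. These were mostly starts of long non-coding RNAs (45 genes, against 12 protein-coding genes with an inner start). The sites overlapped 59 windows of the 250 bases before a start, whose letters were searched for motifs. The AP-1 motif TGANTCA, searched on both strands, was present in 20 of the windows, 33.9% (23.1–46.6%), against 6.75% of all 32851 windows of that length and 4.30% of the 2023 windows at the other KMT2D peaks. Among non-coding genes alone the shares were 33.3% (15 of 45) at the sites, 7.88% in all 11588 windows and 8.49% of the 212 windows at the other KMT2D peaks. The TFAP2 motif GCCNNNGGC was present in 16.9% at the sites, and its interval (9.48–28.5%) holds both the 24.3% at the other KMT2D peaks and the 13.7% in all windows. TEAD (GGAATG) was present in 18.6% and SOX (ACAAAG or ACAATG) in 35.6% of windows at the sites, and the intervals of both shares (10.7–30.4% and 24.6–48.3%) hold those of all windows, 12.6% and 25.2%. Both intervals lie above the shares at the other KMT2D peaks, 9.34% for TEAD and 12.9% for SOX. The 24 AP-1 matches lay a median of 90.5 bp from the KMT2D summit (9 to 390 bp), 13 of them within 100 bp. A match describes the letters only and shows no factor bound there.

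The 5 windows with an AP-1 match that lay wholly inside a site are shown to let the motif be seen in place, 5′ to 3′ on the strand of the transcript, with the AP-1 match in capitals. They were chosen after their values were seen and come from RefSeq on GRCm38.p6, the assembly of mm10. In order they are chr12:86833764-86834013 (minus strand, in a group of 5 sites near Irf2bpl), chr2:13558653-13558902 (plus strand, near Vim and Trdmt1), chr3:104360319-104360568 (minus strand), chr12:74825050-74825299 (plus strand) and chr13:15806993-15807242 (plus strand).
Gm40491: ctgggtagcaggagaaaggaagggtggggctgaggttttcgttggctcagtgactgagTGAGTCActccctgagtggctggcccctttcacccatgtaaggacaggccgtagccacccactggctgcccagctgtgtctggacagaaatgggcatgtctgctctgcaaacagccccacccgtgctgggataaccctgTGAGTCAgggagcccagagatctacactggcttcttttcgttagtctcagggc
Gm9875: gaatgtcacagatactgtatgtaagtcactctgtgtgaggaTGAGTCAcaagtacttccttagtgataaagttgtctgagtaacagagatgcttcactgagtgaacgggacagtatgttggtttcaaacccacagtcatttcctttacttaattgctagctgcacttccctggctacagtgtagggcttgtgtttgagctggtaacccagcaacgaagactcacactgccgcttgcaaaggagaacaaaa
Gm5546: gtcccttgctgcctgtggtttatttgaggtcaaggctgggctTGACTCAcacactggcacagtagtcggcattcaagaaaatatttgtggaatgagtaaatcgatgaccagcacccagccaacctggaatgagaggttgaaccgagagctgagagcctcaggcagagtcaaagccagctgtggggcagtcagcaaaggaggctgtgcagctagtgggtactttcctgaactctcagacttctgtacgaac
Gm39473: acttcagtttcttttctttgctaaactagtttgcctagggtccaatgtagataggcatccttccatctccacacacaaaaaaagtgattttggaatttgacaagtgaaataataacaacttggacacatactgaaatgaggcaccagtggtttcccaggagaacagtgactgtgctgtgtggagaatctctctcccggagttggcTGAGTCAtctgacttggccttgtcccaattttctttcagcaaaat
A530046M15Rik: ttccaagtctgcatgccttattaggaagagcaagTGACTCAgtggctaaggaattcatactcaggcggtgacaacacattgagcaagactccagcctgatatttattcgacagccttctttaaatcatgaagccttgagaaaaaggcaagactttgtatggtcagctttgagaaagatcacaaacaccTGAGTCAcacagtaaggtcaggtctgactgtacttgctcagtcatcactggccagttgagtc

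The windows at the sites named Gm40491 and A530046M15Rik hold a pair of matches each. The Gm40491 site had a KMT2D fold enrichment of 67.7, UTX of 74.8 in the WT and 19.3 in the mutant list, and ARID1A of 35.4 and 46.6. Fold enrichment is the authors' ratio of summit signal over background, and it is compared only within a list. At the Gm9875 site KMT2D stood at 39.8, UTX at 66.0 in the WT and 38.3 in the mutant list, and SOX10 (antibody U) at 9.97. At the Gm5546 site, 93428 bp from Lrig2, KMT2D stood at 19.1, ARID1A at 30.2 in the WT and 53.6 in the mutant list, and TFAP2A at 24.2 and 23.0. The Gm39473 site, 72147 bp from Kcnh5, and the A530046M15Rik site, 77142 bp from Gli3, had weaker KMT2D (12.2 and 8.60) and strong WT SMARCC1 (35.0 and 42.1). All 5 sites had UTX and ARID1A peaks in both lines.

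KMT2D peaks at the sites were narrow, with a median width of 303 bp (middle 80% from 201 to 601 bp), and their summits lay a median of 29988.5 bp from the nearest gene end. In all, 1608 (49.0%) were inside a protein-coding gene and 540 (16.4%) were over 100 kb from any gene end. KMT2D fold enrichment, on which the peak call rests, had a median of 8.60 and ran from 1.12 to 111. The sites nearest the limit had summits at 5014, 5019 and 5021 bp from a gene end, and the peaks just outside it at 4971, 4958 and 4957 bp. WT UTX was listed at 86.8% of the 121 sites between 5 and 6 kb and at 89.9% of the 129 KMT2D peaks without H3K4me3 between 4 and 5 kb. The nearest WT H3K4me3 peak was a median of 37382.5 bp away, and 116 sites had one within 1 kb.

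The strongest sites lay near genes of varied function. The highest KMT2D value, 111, was at chr7:113147398-113149017, 30414 bp from the clock gene Arntl, where WT UTX reached 132 and WT ARID1A 49.7. That site was also listed for mutant UTX (35.7), mutant ARID1A (81.5) and SOX10 with antibody T (9.49) and antibody U (9.97), and 6 sites in all lay within 50 kb of Arntl. The site near Hbegf, which encodes an EGF family ligand, followed at chr18:36492534-36493729 with KMT2D at 109, WT UTX at 141 and TFAP2A at 73.6 in the WT and 52.6 in the mutant list. All 6 Arntl sites and the top Hbegf site thus carried UTX in both lines. A site inside Zdhhc18, a palmitoyltransferase gene, had KMT2D at 85.0, WT UTX at 113 and TFAP2A at 77.0 in the WT and 62.2 in the mutant list. The last 2 of the 10 lay inside Tex14, a gene of germ cell bridges, with KMT2D at 78.0 and WT UTX at 98.7, and near Rdm1, with KMT2D at 75.7 and UTX at 115 and 71.4. All 10 were listed for UTX in both lines, and 2 of them, near Mc2r and Myl12b, had no ARID1A peak in either line.

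Sites were partly grouped. Joined over gaps of up to 12413 bp, the longest gap bridged, they formed 2797 clusters, and 856 sites (26.1%) shared a cluster with at least 1 other. One cluster held 6 sites near Snx6, which encodes a sorting nexin, and all 6 carried UTX in both lines. Another 6 lay near Socs3, a feedback inhibitor of cytokine signalling, where 5 carried WT UTX and 3 mutant UTX. Clusters of 5 sites included one near Irf2bpl and one inside Myof, each with WT UTX and ARID1A at all 5. Counted within 50 kb of the gene body, Socs3 and Cubn had the most sites, 9 each, followed by Camk1d, Gse1, Septin9 and Lpp with 8 and, among others, Snx6, Ergic1 and Lrrfip1 with 7. Among the 9 Cubn sites 9 carried WT UTX and 8 mutant UTX, while among the 8 Lpp sites these were 7 and 2.

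In the WT line nearly every site carried UTX and ARID1A. UTX peaks overlapped 2996 of 3283 sites, 91.3% (90.2–92.2%), against 88.3% of all KMT2D peaks, and ARID1A peaks 94.3%, against 87.7%. Both were listed together at 88.0% of sites and neither at 81 sites (2.47%). Of the targets more frequent here, SMARCC1 differed most from the other KMT2D peaks, at 69.1% against 48.0% of all KMT2D peaks, 44.6% of distal peaks with H3K4me3 and 22.9% of peaks within 5 kb of a gene end. The difference from distal peaks with H3K4me3 was 24.6 points (19.6–29.4). UTX, ARID1A and SMARCC1 lay together at 65.7% of sites. With the WT SMARCC1 list shortened to the length of the mutant list (2910 peaks) the SMARCC1 share was 31.8%.

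Mutant shares differed between combinations of WT partners, which also differed in KMT2D fold enrichment. The most common one, UTX with ARID1A, SMARCC1 and TFAP2A but not Menin, was found at 918 sites (28.0%), with a median KMT2D fold enrichment of 10.7. Of these, 73.3% had mutant UTX and 4.36% had no mutant peak at all. UTX, ARID1A and SMARCC1 without TFAP2A or Menin followed at 902 sites (median 7.90), with mutant UTX at 64.9%. At the 363 sites with UTX and ARID1A alone (median 7.20) mutant UTX was listed at 53.7%, and 23.1% had no mutant peak. With UTX, ARID1A and TFAP2A alone, at 258 sites (median 8.60), mutant UTX was listed at 48.8%. The part of KMT2D strength in the differences between combinations was not tested. The 61 sites with none of the 5 partners had a median KMT2D fold enrichment of 5.22, and 67.2% of them had no mutant peak.

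TFAP2A and Menin were less often listed at the sites than at the other KMT2D peaks. TFAP2A overlapped 46.4% of sites, against 57.7% of all KMT2D peaks and 68.7% of distal peaks with H3K4me3, a difference of −22.3 points from the last (−26.8 to −17.6). Menin overlapped 14.8%, against 37.7% and 67.6%. ARID2 overlapped 4.20% (4.79% of all KMT2D peaks), BRD9 1.43% (1.32%) and PBRM1 0.152% (1.45%), from lists of 689, 141 and 343 peaks. Read from the other side, the sites took up 47 of the 141 WT BRD9 peaks, 33.3% (26.1–41.5%), and 30.5% of WT UTX, 19.7% of WT SMARCC1, 13.8% of WT ARID1A and 13.1% of WT TFAP2A peaks.

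**Figure D1:**
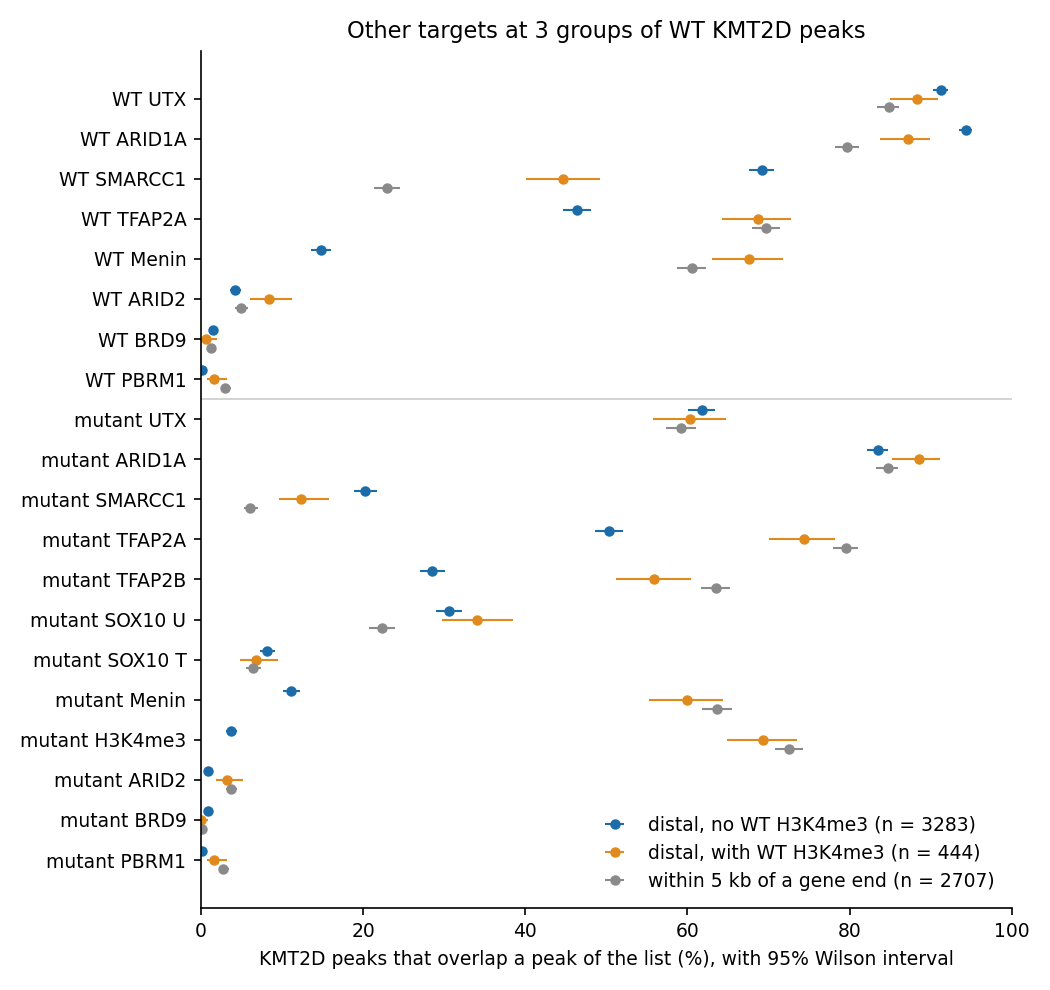
Share of WT KMT2D peaks, in percent on the horizontal axis, that overlap a peak of each other list (vertical axis, 8 WT lists above the line and 12 mutant lists below), with 95% Wilson intervals as bars. The 3283 distal sites (blue) stand above both other groups for WT ARID1A and SMARCC1 and far below them for Menin, mutant H3K4me3, TFAP2A and TFAP2B.

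The partners sat close to the KMT2D summit. The summit of the WT UTX peak lay a median of 40 bp away and 81.2% were within 100 bp. The medians were 47 bp for ARID1A, 57 bp for SMARCC1, 70 bp for TFAP2A and 74.5 bp for Menin. The partners' own peaks were stronger here than elsewhere in their lists, with a median fold enrichment of 17.3 against 8.31 for WT ARID1A, 13.8 against 8.36 for WT UTX and 10.7 against 7.16 for WT SMARCC1. Menin peaks at the sites were not, at 6.09 against 6.72.

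Partner shares followed the KMT2D value itself, unevenly. Over 5 equal classes of KMT2D fold enrichment, from a median of 5.10 to one of 20.5, WT UTX went from 77.3% to 99.5% of sites and WT TFAP2A from 33.3% to 67.6%. WT ARID1A moved less, between 89.2% and 97.0%. In the mutant line UTX went from 39.9% to 88.0% and SOX10 U from 19.0% to 48.4%, while H3K4me3 was listed at 21 to 29 sites in each class. The part of peak strength in what a caller lists was not tested.

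**Figure D2:**
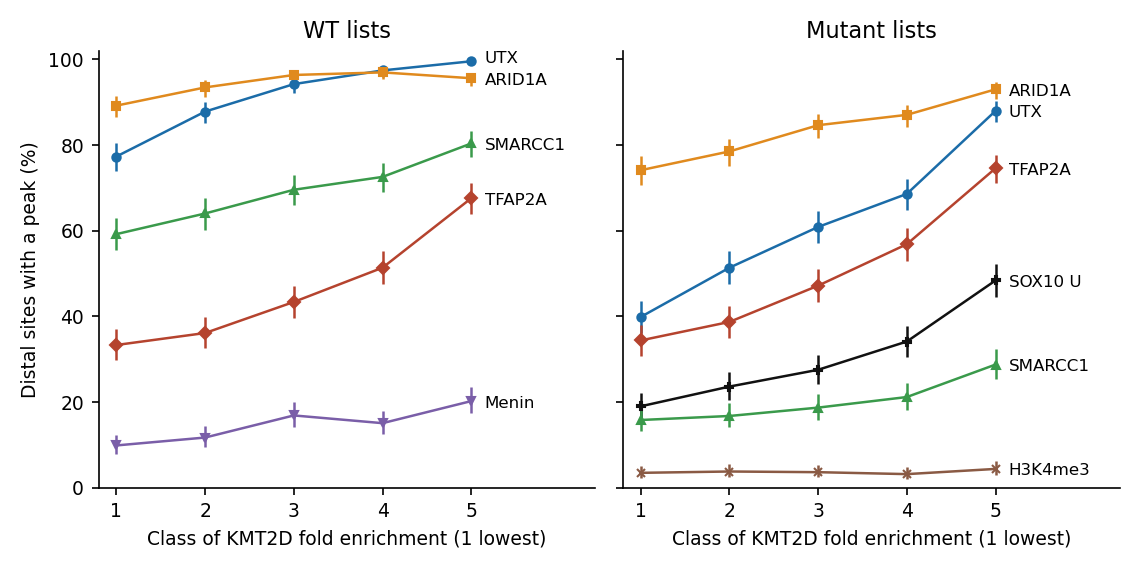
Share of distal sites with a peak (vertical axis, percent) in 5 equal classes of KMT2D fold enrichment (horizontal axis, 656 or 657 sites each), for WT lists on the left and mutant lists on the right, with 95% Wilson intervals. Mutant UTX climbs from 39.9% to 88.0%, and mutant H3K4me3 stays below 5% in every class.

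UTX was listed in the mutant line at 61.7% of sites (60.6% of all KMT2D peaks), ARID1A at 83.5% (84.3%), SMARCC1 at 20.3% (13.8%) and Menin at 11.1% (36.6%). The short mutant ARID2 and BRD9 lists covered 0.853% (2.21%) and 0.822% (0.451%). Of the sites with WT UTX, 65.1% kept a UTX peak (1951 of 2996, 63.4–66.8%), where 53.3% of all WT UTX peaks did. For ARID1A it was 86.4% (2676 of 3096), against 70.9% of all WT ARID1A peaks, for TFAP2A 79.8% (1215 of 1522), against 82.5%, and for SMARCC1 27.4% (623 of 2270), against 16.9%. Menin was kept at 196 of 485 sites (40.4%; 77.0% of all WT Menin peaks), ARID2 at 18 of 138 (13.0%; 35.6%) and BRD9 at 21 of 47 (44.7%; 30.5%). Gains were few for UTX (76 sites) and ARID1A (64) and more numerous for TFAP2A, with 438 of the 1761 sites without a WT peak. Mutant UTX and ARID1A lay together at 1967 sites (59.9%) and neither was listed at 483 (14.7%). ARID1A lay without UTX at 773 (23.5%) and UTX without ARID1A at 60 (1.83%). At distal KMT2D peaks with H3K4me3 and at KMT2D peaks within 5 kb of a gene end, both lay together at 58.6% and 56.7%. ARID1A without UTX was listed there at 29.95% and 28.04%, UTX without ARID1A at 1.80% and 2.51%, and neither at 9.68% and 12.8%.

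The lists differed in depth. The background of each list was read from the spacing of the fold enrichment values. Depth was taken as this background divided by the shortest peak width of the list, a division that is an assumption. For UTX the background was 0.1215 in the WT and 0.1488 in the mutant list, with shortest peaks of 190 and 147 bp. So taken, the depth of the mutant UTX list was 1.58 times the WT depth. It was 1.84 times for ARID1A and TFAP2A, 1.87 times for H3K4me3 and 0.394 times for SMARCC1. The same spacing gave a scaling of the signal, 0.6366 in the WT and 1 in the mutant list for TFAP2A, and 0.85 and 1 for UTX. Depth here is thus that of the scaled signal and not the number of reads sequenced. With the deeper list of each pair thinned to the depth of the other, UTX was kept at 61.7% of sites (59.9–63.4%), ARID1A at 85.7%, TFAP2A at 73.7%, Menin at 30.9% and SMARCC1 at 31.3% (29.2–33.4%). TFAP2A gains came to 308 sites after thinning, against 400 losses, where the lists as called gave 438 gains and 307 losses. Thinning, an alternative chosen after seeing the data, removed peaks from the mutant TFAP2A list alone, so gains could only fall and losses only rise.

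ARID1A, SMARCC1 and TFAP2A peaks at the sites were kept more often than distal peaks of the same target with neither KMT2D nor WT H3K4me3. With the comparison peaks given the mix of WT fold enrichment found at the sites, in 10 classes, ARID1A was kept at 86.9% against 83.0%, a difference of 3.86 points (2.52–5.21). SMARCC1 differed by 5.37 points (3.29–7.45), or 2.44 (0.660–4.21) with mutant peaks of −log10 q of at least 5, and TFAP2A by 6.74 (4.38–9.09). The UTX difference was 14.8 points (0.408–29.2), or 13.8 (−0.588 to 28.2) with mutant peaks of that −log10 q and 13.3 (−1.10 to 27.7) with the WT summit inside a mutant peak, so that under both settings the interval includes 0. Its top class held 592 peaks at the sites and 2 without KMT2D. Without that class, an alternative chosen after seeing the data, the difference was 8.03 points (3.18–12.9), from 59.0% against 51.0%. Before reweighting the differences were 27.9 points for UTX, 23.3 for ARID1A, 14.1 for SMARCC1 and 17.1 for TFAP2A, and peaks without KMT2D were weaker, with a median WT UTX fold enrichment of 6.95 against 13.8.

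**Figure D3:**
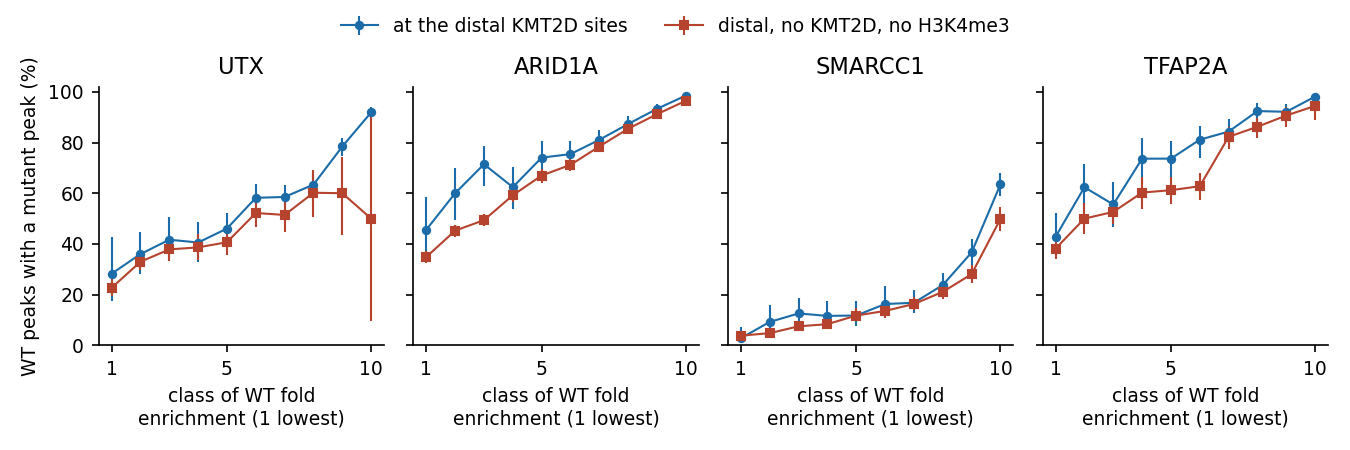
Share of WT peaks of UTX, ARID1A, SMARCC1 and TFAP2A with a mutant peak of that target (vertical axis, percent) over 10 classes of WT fold enrichment (horizontal axis), at the distal KMT2D sites (blue circles) and at distal peaks with neither KMT2D nor WT H3K4me3 (red squares), with 95% Wilson intervals. At the sites the share in class 10 is above that in class 1 for every target, and the top UTX class has only 2 peaks without KMT2D.

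Sites with SOX10, the lineage factor of neural crest and pigment cells, carried UTX in the mutant line more often than sites without it. SOX10 peaks of antibody U overlapped 1003 sites, 30.6%, against 27.3% of all KMT2D peaks, and those of antibody T 8.13%, against 7.32%, with 221 sites in both lists. UTX was listed at 94.2% of sites with SOX10 U (92.6–95.5%) and at 47.5% of sites without it (45.4–49.5%). With KMT2D fold enrichment balanced in the same way, the difference was 37.9 points (35.4–40.4). ARID1A differed by 19.7 points (17.8–21.6), TFAP2A by 26.6 (23.1–30.1) and TFAP2B by 18.4 (14.8–22.1), all in mutant lists. In the WT lists the same sites differed by 4.01 points (2.59–5.43) for UTX and 5.65 (4.07–7.22) for ARID1A after the same reweighting. WT SMARCC1 differed by 13.3 points (10.0–16.6), WT TFAP2A by 4.21 (0.519–7.91) and WT Menin by 2.92 (−0.0505 to 5.89). Sites without SOX10 U already carried WT UTX at 88.9% and WT ARID1A at 92.6%, so a gap as wide as that of mutant UTX was not possible for these 2 lists. WT SMARCC1, at 64.5% of sites without SOX10 U, was further from that limit. All mutant libraries share 1 cell line, and the part of shared signal quality in these differences was not tested. SOX10 was listed in the mutant line alone, so its place in the WT line was not analysed here.

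**Figure D4:**
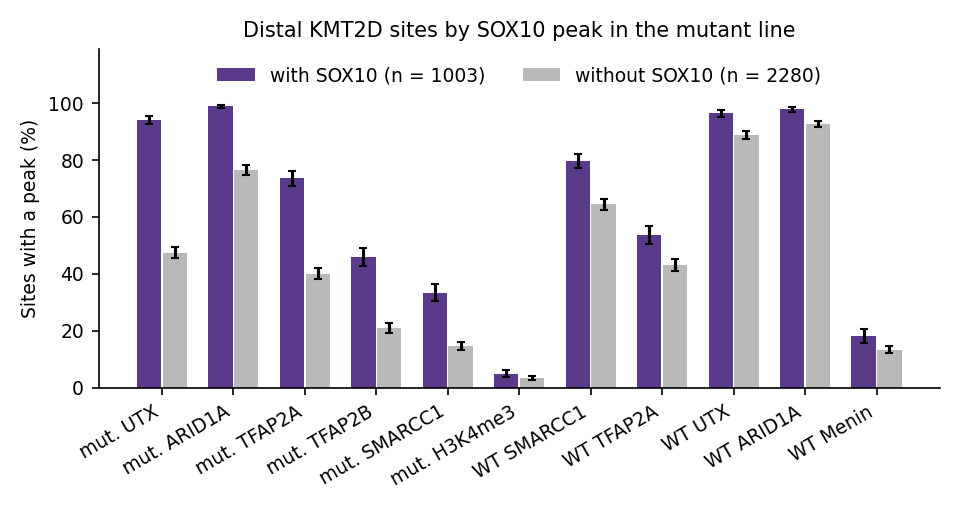
Share of distal KMT2D sites with a peak of each list (vertical axis, percent, bars from 0) for the 1003 sites with a SOX10 U peak (purple) and the 2280 without one (grey), with 95% Wilson intervals. Mutant UTX stands at 94.2% and 47.5%, the widest gap shown, and WT UTX and ARID1A lie between 88.9% and 98.1% in both groups.

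The sites with the highest SOX10 U values carried the other factors too. The top one lay 67455 bp from Gfra2, a receptor gene of the GDNF family, with SOX10 U at 51.9, SOX10 T at 33.0, TFAP2A at 28.9 in the WT and 92.8 in the mutant list, and UTX at 21.4 and 47.0. A site near the corepressor gene Tle3 had SOX10 U at 46.8 and UTX at 19.6 in the WT and 33.5 in the mutant list. A site inside Gse1 followed at 46.2, then sites near Trip13 (39.9) and Phlpp1 (35.4). All 5 were listed for SOX10 T, TFAP2A, TFAP2B, ARID1A and UTX in the mutant line, and their KMT2D values were modest, between 4.40 and 12.8.

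Read from the mutant UTX peaks, SOX10 U was listed at 46.6% of the 2027 sites with UTX and 4.62% of the 1256 without, and SMARCC1 at 28.2% and 7.48%. WT UTX peaks at the sites met SOX10 U at 32.9%, against 17.3% of the 2987 distal WT UTX peaks with neither KMT2D nor H3K4me3, which were weaker.

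TFAP2B went almost wholly with TFAP2A, at the sites and at the other KMT2D peaks. In the mutant line TFAP2A overlapped 50.4% of sites (64.3% of all KMT2D peaks) and TFAP2B 28.5% (45.1%), and 907 of the 937 sites with TFAP2B also had TFAP2A. Among KMT2D peaks within 5 kb of a gene end it was 1695 of 1718, and among distal peaks with H3K4me3 245 of 248. Mutant UTX was listed at 66.0% of the 1522 sites with WT TFAP2A (63.6–68.4%) and 58.0% of the 1761 without (55.7–60.3%), whose median KMT2D values were 10.0 and 7.47. With KMT2D fold enrichment balanced, the sites without WT TFAP2A came to 66.4%, a difference of −0.372 points (−3.38 to 2.64). By WT SMARCC1 mutant UTX was listed at 67.8% against 48.1%, or 53.0% after the same balancing, a difference then of 14.8 points (11.3–18.3).

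H3K4me3, absent from the sites in the WT line by the rule, was listed in the mutant line at 122 of them, 3.72% (3.12–4.42%). It was at 37.2% of all KMT2D peaks, which include those with WT H3K4me3, so the rule enters that contrast. WT UTX peaks at the sites met it at 4.09%. The 2987 distal WT UTX peaks with neither KMT2D nor WT H3K4me3, which were weaker, met it at 1.98%. The mutant H3K4me3 peaks at the sites were weak, with a median fold enrichment of 5.42 against 16.6 elsewhere. Their summits lay a median of 216.5 bp from that of KMT2D. Thinning to the WT depth left 101, and a −log10 q of at least 5 was reached at 1.52% of sites. Sites with WT Menin had it more often than sites without, 11.1% against 2.43%, and after reweighting the difference was 8.66 points (5.82–11.5). WT Menin was listed at 54 of the 122 sites (44.3%) and at 13.6% of the others. Of the 57 sites at a RefSeq start window 14 had mutant H3K4me3, 24.6% (15.2–37.1%), against 3.35% of all other sites.

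The highest mutant H3K4me3 values, chosen by rank, stood inside Ankrd28 (36.3), inside the retinoic acid receptor gene Rarg (23.3), near Ppara (23.0), inside Idh1 (23.0) and near Spen (19.5). Mutant Menin was listed at the Ankrd28 (7.68), Rarg (9.36) and Idh1 (4.28) sites and WT Menin at 4.77, 16.2 and 11.7. A pair of these sites overlaps the 250 bases before a transcript start. The first is an inner start of Idh1, the cytosolic isocitrate dehydrogenase gene. The other is the start of the non-coding gene B330016D10Rik beside Spen, which lies just past the end of the site. The 250 bases before each start follow, with SOX matches in capitals, because they differ in base composition from the AP-1 windows. They are chr1:65179143-65179392 (minus strand) and chr4:141545912-141546161 (plus strand).
Idh1: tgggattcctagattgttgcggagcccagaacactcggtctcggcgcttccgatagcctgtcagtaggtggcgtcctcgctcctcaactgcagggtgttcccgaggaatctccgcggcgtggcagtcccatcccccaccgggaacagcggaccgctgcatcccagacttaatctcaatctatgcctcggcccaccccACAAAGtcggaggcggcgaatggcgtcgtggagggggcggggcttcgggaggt
B330016D10Rik: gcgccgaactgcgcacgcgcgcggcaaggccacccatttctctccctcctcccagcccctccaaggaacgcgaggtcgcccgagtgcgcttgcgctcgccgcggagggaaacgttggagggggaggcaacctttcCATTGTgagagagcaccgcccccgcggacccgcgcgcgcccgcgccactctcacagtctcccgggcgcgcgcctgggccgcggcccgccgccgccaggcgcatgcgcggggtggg

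Both windows hold no AP-1 match, and their GC content was 63.6% and 75.2%, against 42.0% to 58.0% in the 5 windows shown above. At the Idh1 site KMT2D stood at 5.66 and WT UTX at 8.24, with no mutant UTX peak, and at the B330016D10Rik site KMT2D stood at 6.34 with no UTX or ARID1A peak in either line.

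BRD9, the subunit of non-canonical BAF, was listed at few sites, with high KMT2D values. It overlapped 53 sites in either line and 21 in both, and their median KMT2D fold enrichment was 26.0 against 8.54 at the sites without it. Of the 20 strongest sites 8 had BRD9 and 5 had no WT ARID1A. ARID1A was listed in the WT line at 28 of the 53 (52.8%) and at 3068 of the 3230 without BRD9, SMARCC1 at 47.2% and 69.5%. WT UTX was listed at 92.5% and 91.2%, and SOX10 T was listed at 58.5% and 7.31% while SOX10 U was listed at 32.1% and 30.5%. At the 21 sites with BRD9 in both lines SOX10 T was listed at all 21, SOX10 U at 2 and WT ARID1A at 4. The BRD9 lists hold only 141 and 90 peaks.

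Among the leading 10 the sites with the highest WT BRD9 were narrower than the rest, at 240 to 354 bp. Over all sites those with BRD9 in either line were wider, with a median of 399 bp against 301 bp without it. At Cd209a (chr8:3754393-3754746) BRD9 stood at 101 in the WT and 45.0 in the mutant list, SOX10 T at 53.7 and ARID1A at 7.70 and 7.62. At a 241-bp peak near Myl12b, a myosin light chain gene, BRD9 stood at 78.2, KMT2D at 96.2 and UTX at 151, with no ARID1A or SMARCC1 peak in either line. At a 240-bp peak 262837 bp from Mc2r BRD9 stood at 64.9 in the WT and 9.50 in the mutant list, again with no ARID1A. A site near Eapp had both BRD9 (13.5) and ARID1A (14.5) in the WT line.

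No mutant list covered 422 sites, 12.9% (11.8–14.0%). Among distal KMT2D peaks with H3K4me3 this share was 3.15%, and among KMT2D peaks within 5 kb of a gene end 3.07%. At least 5 of the 12 lists covered 825 sites (25.1%), against 54.3% and 59.3% in those groups. The 12 lists include H3K4me3, at 3.72% of sites and at 69.4% and 72.6% of those groups. They also include Menin, at 11.1%, 59.9% and 63.7%. The sites were chosen for lack of WT H3K4me3, so these contrasts are not independent of the rule. The uncovered sites were weaker, with a median KMT2D fold enrichment of 6.50 against 8.60, and carried WT UTX at 78.0% and WT ARID1A at 82.7%. The strongest of them lay 76356 bp from Alkbh8 with KMT2D at 49.9, UTX at 41.1 and BRD9 at 27.0. Others named by rank lay near Armh1 (26.0) and Spdye4c (23.3) and inside Aspa (22.6), where ARID1A (28.1) and TFAP2A (37.8) were listed in the WT line. By chromosome the share with no mutant peak ran from 7.82% (3) to 22.2% (X, 36 sites). Stretches of at least 200 kb with no peak in any mutant list held 3 sites beside Mtap, Cdkn2a and Cdkn2b (chr4:88951385-89351015, with 63 WT peaks) and 3 in a stretch that overlaps Magi1 on chromosome 6 (10 WT peaks). Whether a stretch was deleted or unbound in the mutant line was not tested.

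KMT2D alone was rare: 58 sites (1.77%) had no other WT peak and 39 (1.19%) had no other peak in any list. Among KMT2D peaks within 5 kb of a gene end these shares were 0.887% and 0.517%. WT H3K4me3, kept from the sites by the rule, was listed at 66.1% of those peaks. They thus had a further list to meet, and the shares are not counted over the same lists. The strongest of the 58 lay near Chrm3 (35.2), where the mutant line had BRD9 (11.3) and UTX (8.05), and the next near Lsm4 (15.2), Rpp21 (13.0) and Socs3 (12.8) and inside Cenpo (12.2). The Lsm4, Socs3 and Cenpo sites were covered by no list of the mutant line.

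Genes of IGF signalling, AP-1 factors and mesenchymal state had a site within 50 kb of the gene body at a higher share than all protein-coding genes. A site lay within 50 kb of 3520 of 21900 genes, 16.1%. Among IGF signalling genes it was 10 of 18, 55.6% (33.7–75.4%), among AP-1 genes 8 of 15, 53.3% (30.1–75.2%), among mesenchymal state genes 9 of 20, 45.0% (25.8–65.8%), and among pigment cell genes 2 of 22, 9.09% (2.53–27.8%), an interval that holds the share of all genes. Longer genes have a wider window, and the median length was 53.8 kb for the IGF genes, 8.24 kb for the AP-1 genes, 20.7 kb for the mesenchymal genes, 29.2 kb for the pigment genes and 17.1 kb for all genes.

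Mesenchymal genes with sites included Tgfbi (6 sites), which encodes an extracellular matrix protein, the lysyl oxidase gene Loxl2 (4) and Vim, Snai1, Twist2, Itga5 and Cdh2 (2 each). The highest KMT2D value was 31.7 at Tgfbi and 39.8 at Vim. All 26 sites near genes of the list carried WT UTX and ARID1A, and UTX was kept at 69.2% and ARID1A at 96.2%.

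AP-1 genes with sites were Atf3, Fosb, Jun and Maff (3 each), Fosl1 (2) and Fos, Jund and Batf (1 each). UTX was kept at 42.9% of their 14 sites with WT UTX and ARID1A at 69.2% of 13. Neither of the Fosl1 sites had mutant UTX, and all 3 Jun sites did. Of the IGF genes, the receptor gene Igf2r had 3 sites, Igfbp3 had 2, and Igf1r, Insr, Irs2, Akt1, Akt2, Pik3ca and Igfbp4 had 1 each, with the highest KMT2D value (24.0) at Igfbp3. The pigment cell genes with a site were Mitf, the master regulator of melanocytes, and Trpm1, a channel gene, with 1 site each at 4.40 and 8.21, both with UTX and ARID1A in both lines.

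Among the clock genes 6 of 16 had a site, with Arntl (6 sites) and Bhlhe40 (3) first. EGF family genes gave 5 of 14, with Hbegf at 3 sites and Areg and Ereg sharing 1. MAPK feedback genes gave 5 of 14, and all 7 of their sites with WT UTX kept it. Those genes were Dusp5, Dusp6, Etv5, Ier3 and Phlda1. TGF-beta and BMP genes gave 6 of 18, Smad3 with 4 sites, TEAD and YAP genes 4 of 16, Tead1 with 3, and glycolysis genes 5 of 20, Hk1 with 2. Control lists gave 5 of 20 for ribosomal protein genes and 4 of 12 for silent tissue-restricted genes, whose intervals (11.2–46.9% and 13.8–60.9%) hold the share of all genes.

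**Figure D5:**
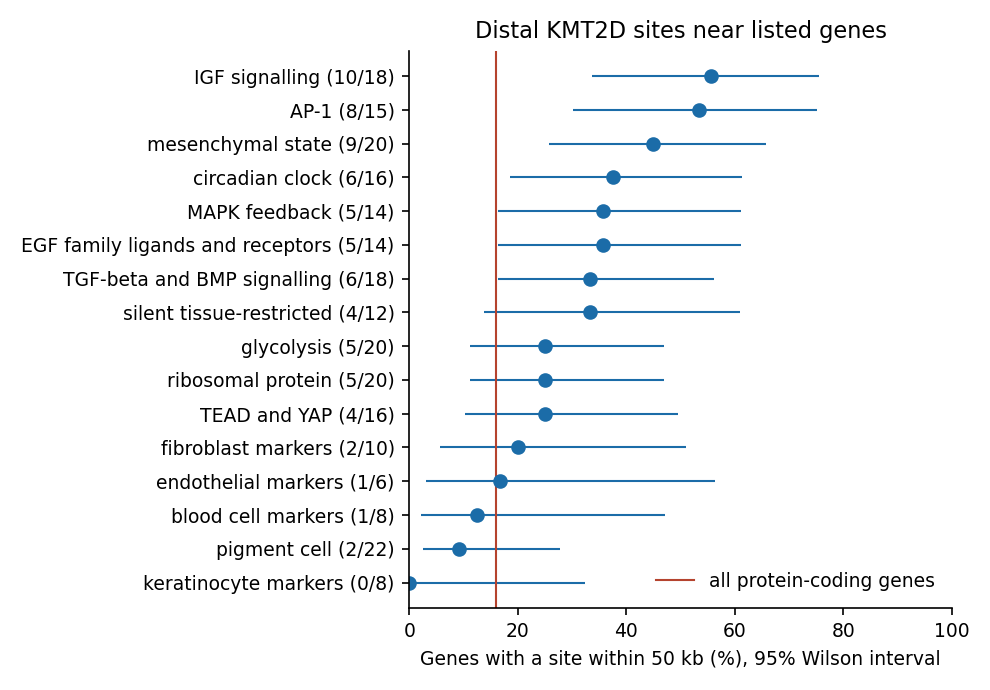
Share of genes in each list with a distal KMT2D site within 50 kb of the gene body (horizontal axis, percent, 95% Wilson interval), with counts beside the list names and the share of all protein-coding genes, 16.1%, as a red line. The intervals of IGF signalling, AP-1, mesenchymal state, clock, MAPK feedback, EGF family and TGF-beta genes lie above the line, and those of the remaining lists cross it.

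The cell type label was checked on H3K4me3 at gene ends, since no expression was measured. Within 1 kb of a gene end the pigment cell list had H3K4me3 at 7 of 22 genes in the WT and 9 in the mutant line, the mesenchymal list at 16 and 17 of 20. Fibroblast markers had it at 4 of 10 in each line, keratinocyte markers at 1 of 8 and endothelial markers at 1 of 6 in each line, and blood cell markers at 0 of 8 in the WT and 1 of 8 in the mutant line. The part of other cells in the results was not tested.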

How the data were processed

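CUT&RUN peak lists of 22 samples from 2 mouse melanoma lines were used, on mm10. Bowtie2, MACS2, FastQC and MultiQC are named in the submitters' processing notes, and their versions and settings are not given in the sources used here. The deposited narrowPeak lists hold, per the file columns, a score, a fold enrichment ratio at the summit, and −log10 p and −log10 q for each peak, as the authors' caller gave them. From these, overlaps of at least 1 bp were counted with Python 3.11.15, NumPy 2.4.6, pandas 2.3.3 and SciPy 1.17.1, and figures drawn with Matplotlib 3.10.9. Shares carry Wilson and their differences Newcombe 95% intervals, for counting error only; reweighted differences carry normal ones. Reweighting gives the comparison peaks the mix of the sites over 10 classes of fold enrichment. Caller depth was the background read from the spacing of the deposited fold enrichment values, divided by the shortest peak width of the list. It was used to thin the deeper list of a pair. Total reads are not given in the sources used here. The steps were tested on simulated data. The gene table and start windows are RefSeq GRCm38.p6, and a genome sequence was not used here, so motifs were searched in the start windows alone. Sites named are the 10 with the highest KMT2D value, the 5 highest for mutant H3K4me3, for SOX10 U, among sites with no mutant peak and among those with no other WT peak, the 10 genes with the most sites, the 5 largest clusters, and genes of 16 fixed lists. The sites and lists were chosen with earlier results of these data known. Some sites and genes these rules name are not reported here.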

Additional observations from a re-analysis of the deposited data

How the results depend on the processing

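The number of sites, 3283, became 3613 with gene ends at 2.5 kb, 2747 with gene ends at 10 kb, 3167 with no WT H3K4me3 within 1 kb, 2671 with a KMT2D −log10 q of at least 5 and 3280 without regions in at least 15 libraries. It became 2632 with the ends of all RefSeq genes and 3161 with no H3K4me3 in either line, both chosen after seeing the data. Of 134 shares and differences under other settings 82 stayed inside their counting interval and 52 moved further. A share cannot change sign, and of the differences 0 did. Some settings could not move a value, such as equal numbers of top peaks for the shorter list of a pair. The UTX difference in kept peaks had a wide interval (0.408–29.2 points), so its values stayed inside it easily. The tally is thus a description and no test of robustness. Shares below are percentages of sites. With a KMT2D −log10 q of at least 5 they were 94.3 for WT UTX, 95.6 for WT ARID1A, 71.5 for WT SMARCC1, 49.3 for WT TFAP2A, 66.7 for mutant UTX, 85.7 for mutant ARID1A, 53.8 for mutant TFAP2A and 33.2 for SOX10 U. With a partner −log10 q of at least 5, in that order, they were 89.1, 92.3, 63.6, 41.6, 52.8, 79.6, 42.7 and 22.8, and 1.52 for mutant H3K4me3. With the partner's summit inside the site they were 85.9, 87.2, 62.7, 40.3, 58.5, 76.4, 44.9, 28.3 and 1.98. With at least 50% of the site covered they were 93.2 for WT ARID1A, 65.5 for WT SMARCC1, 42.4 for WT TFAP2A, 55.4 for mutant UTX, 81.0 for mutant ARID1A, 43.5 for mutant TFAP2A, 22.6 for SOX10 U and 2.35 for mutant H3K4me3. With equal numbers of top peaks in both lines they were 31.8 for WT SMARCC1, 81.4 for mutant ARID1A, 39.0 for mutant TFAP2A and 2.13 for mutant H3K4me3. Thinned to equal depth, chosen after seeing the data, they were 57.9 for WT SMARCC1, 58.3 for mutant UTX, 43.6 for mutant TFAP2A and 3.08 for mutant H3K4me3. Gene ends at 10 kb gave 70.8 for WT SMARCC1. Mutant H3K4me3 was 2.84 with no WT H3K4me3 within 1 kb and 3.00 with the ends of all RefSeq genes, the latter chosen after seeing the data. Without reweighting the kept peaks differed by 23.3 points for ARID1A, 14.1 for SMARCC1 and 17.1 for TFAP2A, and with a mutant −log10 q of at least 5 by 2.44 for SMARCC1. The mutant UTX difference by SOX10 U was 46.8 points without reweighting, 41.2 with that −log10 q and 40.7 when thinned, all chosen after seeing the data. The cause of these moves was not tested beyond what each setting removes. No paired analysis was possible because each line and target has 1 library, and no library could be left out.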
